A study of Rattus norvegicus with 38 samples.

Results

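The imprinted Dlk1-Dio3 locus carries a large group of clustered miRNAs, which were followed here in the livers of 38 adult male rats. Of 42 locus miRNAs listed by name, 38 had a probe on the array under that name or with an arm suffix, and 4 of these (miR-300, miR-369, miR-376b and miR-409) had both arms. The result was 42 locus miRNAs among the 350 miRNAs of the array. The members were matched by name, from a list drawn up with earlier results of these data known. The 4 listed names miR-496, miR-667, miR-668 and miR-665 were not analysed here. miR-494, which lies in the same locus and was detected on all 38 arrays by the rule given below, was kept apart, as were the star arms. Both are given only for comparison.

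The rats were Fischer F344 males, 8 weeks old on arrival per the labels and sampled at 90 days of the study, and each gave 1 liver RNA on 1 array. For the treated groups, 4 rats ate Diethylthiourea (2500 ppm), 5 ate Benzophenone (1250 ppm), 3 ate Phenobarbital (1000 ppm) and 4 ate Diethylhexylphthalate (12000 ppm). A further 4 rats ate Monuron (1500 ppm), 4 Chlorendic Acid (1250 ppm), 4 Methapyrilene HCl (250 ppm) and 5 2-acetylaminofluorene (40 ppm). The control rats ate the diet without a chemical (n = 5). All groups shared sex, strain, tissue and time. Each chemical was given at 1 dose, so that no dose response could be read, and each liver is a mixture of cell types. In such bulk RNA fewer cells of a type and less RNA per cell cannot be told apart.

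As background, the domain is imprinted: its protein-coding genes Dlk1, Rtl1 and Dio3 are read from the paternal chromosome and its long noncoding RNAs from the maternal one. The miRNAs are cut from those maternal noncoding transcripts, which include Meg3, the antisense transcript of Rtl1 and Mirg. They are abundant in embryo, placenta and brain, and are known as a group that falls away in most adult tissues. In mouse liver, noncoding RNAs of this domain have been described as induced by phenobarbital, a barbiturate drug and activator of the nuclear receptor CAR. The question put to the arrays was therefore how silent the locus is in adult rat liver and whether any of the 8 chemicals, phenobarbital above all, made its miRNAs detectable.

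All 42 listed hairpins were found in the RefSeq miRNA table of rat build GRCr8, on the plus strand of chromosome 6. From miR-770 to miR-410 they spanned 281755 bases. The first 13 listed hairpins, miR-770 to miR-370, lie near Meg3 and the Rtl1 antisense transcript, and a gap of 188875 bases separates them from miR-379. The other 29 listed hairpins form the miR-379 to miR-410 cluster within Mirg. miR-409, the source of the one repeatedly detected member, is close to the 3′ end of that cluster, between miR-541 and miR-412. The arms that the detection results turn on are shown 5′ to 3′ from RefSeq, with the seed (bases 2 to 8, the part that pairs with targets) in capitals. RefSeq calls the miR-409 hairpin's arms miR-409a. The array name of miR-134 states no arm, and so both of its arms are shown.
miR-409a-3p, chr6:134579231-134579250: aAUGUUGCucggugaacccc
miR-409a-5p, chr6:134579198-134579220: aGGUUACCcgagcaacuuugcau
miR-134-5p, chr6:134570320-134570341: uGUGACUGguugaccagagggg
miR-134-3p, chr6:134570359-134570380: cUGUGGGCcaccuagucaccaa
miR-300-5p, chr6:134559923-134559944: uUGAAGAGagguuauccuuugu
No 2 of these 5 arms share a seed. Over the 77 mature arms of the listed hairpins, 3 seeds were shared by a pair of arms, those of miR-381-3p with miR-539-3p, of miR-410-5p with miR-496-5p and of miR-376b-5p with miR-376c-5p. None of the array names measured for these hairpins was detected on any array by the rule given next.

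Detection was read from the scanner's flags. Each miRNA had 20 spots per array, each with a flag for being well above background, and a miRNA was called detected on an array where over 50% of the usable spots of its brightest probe carried that flag. By this rule 40 of the 42 locus miRNAs (95.2%) were detected on no array. Among the other 308 miRNAs of the array 152 (49.4%) were detected on no array and 80 (26.0%) on all 38. The 2 locus miRNAs with any detection were rno-miR-409-3p, on 24 of 38 arrays, and rno-miR-134, on 1 array. miR-409-5p, from the same hairpin as miR-409-3p, was detected on none.

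The 12 measured miRNAs near Meg3 and the Rtl1 antisense transcript were all undetected: miR-770, miR-673, miR-493, miR-337, miR-540, miR-431, miR-433, miR-127, miR-434, miR-136, miR-341 and miR-370. Among these is rno-miR-127, with a median signal of -0.12 units over the 38 arrays, which lies antisense to Rtl1 and in mouse placenta represses it. Only 4 of their 8798 usable spots over all arrays were well above background (0.0455%). Of the 30 miRNAs measured in the miR-379 to miR-410 cluster, 28 were undetected: miR-379, miR-411, miR-299, miR-380, miR-323, miR-758, miR-329, miR-543, miR-495, miR-376c, both arms of miR-376b, miR-376a, both arms of miR-300, miR-381, miR-487b, miR-539, miR-382, miR-485, miR-154, miR-377, miR-541, miR-409-5p, miR-412, both arms of miR-369, and miR-410. Without miR-409-3p, 46 of 21399 spots of the cluster (0.215%) were above background.

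**Figure D1:**
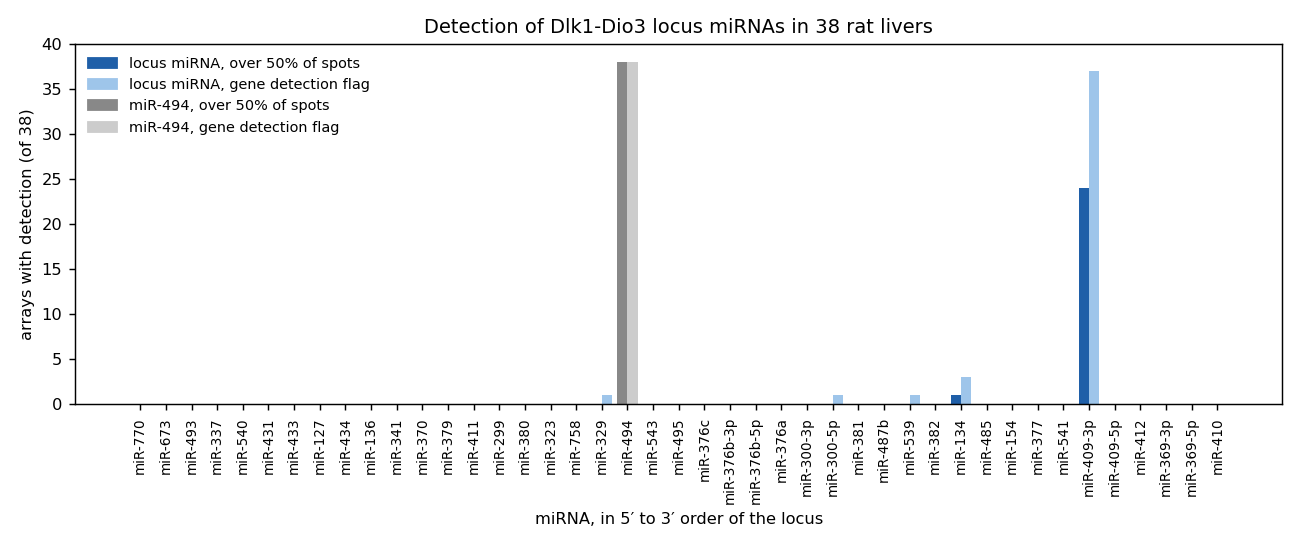
Number of the 38 arrays (vertical axis) on which each locus miRNA was detected, in the 5′ to 3′ order of the hairpins (horizontal axis), by the share of spots above background (dark bars) and by the scanner software's gene detection flag (light bars). miR-409-3p stands at 24 and 37 arrays and miR-494 (grey), in the same cluster, at 38 by both rules, while most names have no bar.

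Spot by spot, the 41 locus miRNAs other than miR-409-3p were close to empty. Over the 38 arrays 50 of their 30197 usable spots were well above background (0.166%), against 78267 of 226526 spots (34.6%) of the other miRNAs and 3 of 24842 spots (0.0121%) of the negative control spots, which match no miRNA. With the spots marked as outliers kept, the shares were 0.510% for the 41 locus miRNAs and 0.490% for the negative controls. The 50 spots lay in 13 miRNAs and 15 arrays, and 26 of them belonged to miR-134. Another 28 locus miRNAs had no such spot on any array.

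The processed signal, a background-subtracted fluorescence per spot, carried the same picture. For the 40 members undetected by their brightest probe, the median over arrays of the brightest probe's signal ran from -2.78 to 2.90 units, with 26 of 40 medians below 0. The lowest signal of any detected probe on an array was 11.6 to 23.8 units. By the brightest probe, 38 of the 40 stayed under 10 units on every array. The highest value of these brightest probes was 16.4 units, of rno-miR-329 with 2-acetylaminofluorene replicate 5. miR-329 is, with miR-134, one of the cluster's miRNAs described in rat neurons as acting on dendrite growth.

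Signals of the undetected members were low in every group. The highest group median of any undetected member was 5.17 units, for rno-miR-539 with Benzophenone. With Phenobarbital the median signals of these 40 members ran from -4.35 to 2.83 units, against -3.57 to 2.87 units in control liver. These values are below the range of detected probes in both groups.

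The number of locus miRNAs detected per liver was between 0 and 2. It was 0 on 14 arrays, 1 on 23 and 2 on 1 array. The mean number was 0.75 ± 0.50 with Diethylthiourea (SD, n = 4), 1.0 ± 0.71 with Benzophenone (n = 5) and 0.67 ± 0.58 with Phenobarbital (n = 3). It was 0.25 ± 0.50 with Diethylhexylphthalate, 0.50 ± 0.58 with Monuron, 0.75 ± 0.50 with Chlorendic Acid and 0.75 ± 0.50 with Methapyrilene HCl (n = 4 each). It was 0.80 ± 0.45 with 2-acetylaminofluorene (n = 5), and 0.40 ± 0.55 in control liver (n = 5). All groups overlapped, since each of the 9 groups held at least 1 array without any detected member and at least 1 array with 1. The members' share was 1.57% of 42 on average over the 38 arrays, against 39.3% ± 3.98 (SD) of the 308 other miRNAs.

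**Figure D2:**
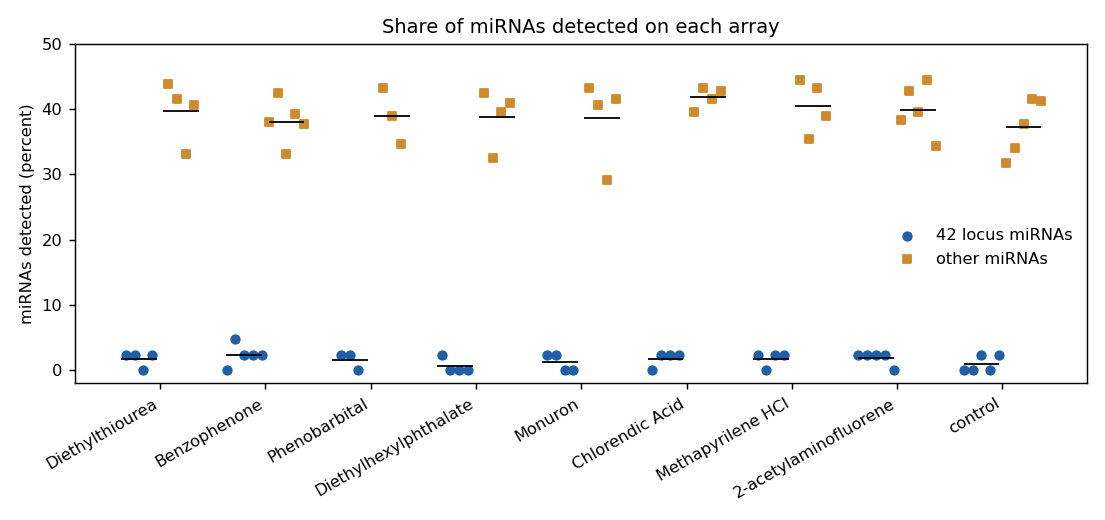
Percent of the 42 locus miRNAs (circles) and of the 308 other miRNAs of the array (squares) detected on each array (vertical axis), by group (horizontal axis, control at the right), with a line at each group's mean. In all 9 groups the locus miRNAs lie at 0 to 4.76% and the others at 29.2 to 44.5%.

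The switch from silence was read by a fixed rule, detection on every array of a chemical and on no control array. No locus miRNA met it with any of the 8 chemicals. Over all 350 miRNAs it was met by 0.571% with Phenobarbital (miR-182 and miR-429), 0.286% with Benzophenone (miR-182) and 0.571% with Chlorendic Acid (let-7d* and miR-429), and by 0.0% with each of the other 5. Those 3 names lie outside the locus and are given because the counts are small. The background of the rule is thus so low that a count of 0 among 42 members lies close to it.

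With Phenobarbital the only locus miRNA detected was miR-409-3p, on 2 of 3 arrays, against 2 of 5 control arrays. None of the 2389 usable spots of the other 41 locus miRNAs was above background with Phenobarbital, which allows a share of up to 0.126%. In control liver 4 of 3997 such spots were (0.10%), 1 each of miR-154, miR-299, miR-300-5p and miR-409-5p. The spot limits cover counting error only, and spots of 1 array share their RNA. A rise of a member that stays under the background of these arrays was not detectable.

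miR-409-3p was the one locus miRNA near the limit of detection in every group. Its brightest probe read 22.2, 21.7, 19.1 and 20.4 units with Diethylthiourea. It read 17.5, 22.2, 20.7, 18.6 and 17.9 units with Benzophenone. It read 20.4, 18.3 and 18.8 units with Phenobarbital. All values of these 3 groups lay within the range of the lowest detected signals per array.

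With Diethylhexylphthalate the probe read 26.5, 19.6, 13.5 and 14.4 units. With Monuron it read 19.9, 21.2, 14.7 and 11.01 units. With Chlorendic Acid it read 15.3, 21.4, 22.7 and 25.7 units. Each of these 3 groups held at least 1 liver below the 3 brighter control livers, and Diethylhexylphthalate replicate 1 held the highest value of the series.

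With Methapyrilene HCl the probe read 22.4, 14.5, 18.8 and 23.5 units, and with 2-acetylaminofluorene 23.8, 18.8, 23.1, 19.7 and 17.5 units. The control livers read 8.82, 10.9, 19.6, 18.2 and 18.4 units. Control replicates 1 and 2 were the lowest of the 38 arrays, while the other 3 control livers lay among the treated ones. The treated and control signals overlapped with each of the 8 chemicals.

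**Figure D3:**
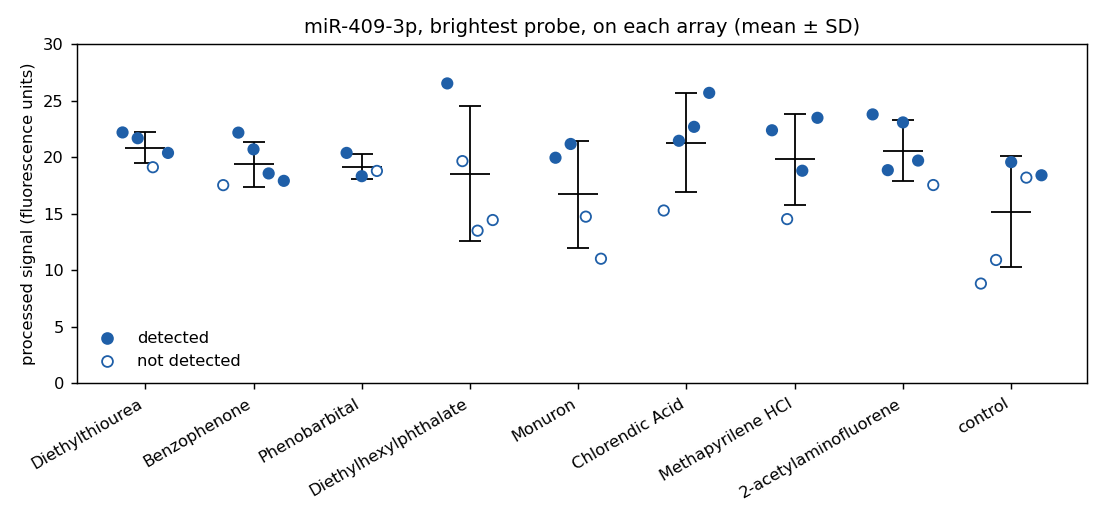
Processed signal of the brightest miR-409-3p probe on each array in fluorescence units (vertical axis), by group (horizontal axis, control at the right), with mean and SD as bars, and with filled points where the miRNA was detected. Means run from 16.7 with Monuron to 21.3 with Chlorendic Acid, and the control mean is 15.2 with 2 low livers at 8.82 and 10.9.

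miR-409-3p was detected on 3 of 4 arrays with Diethylthiourea, 4 of 5 with Benzophenone, 2 of 3 with Phenobarbital, 1 of 4 with Diethylhexylphthalate, 2 of 4 with Monuron, 3 of 4 with Chlorendic Acid, 3 of 4 with Methapyrilene HCl and 4 of 5 with 2-acetylaminofluorene, against 2 of 5 in control liver. No group had it on all arrays. Two-sided Fisher's exact tests on these counts gave p = 0.524 for Diethylthiourea, Benzophenone, Chlorendic Acid, Methapyrilene HCl and 2-acetylaminofluorene, and p = 1.0 for Phenobarbital, Diethylhexylphthalate and Monuron. All adjusted p over the 138 to 148 miRNAs with any detection in the groups compared were 1.0. These group sizes can give no p under 0.00794, or 0.0179 for Phenobarbital. No miRNA of the array passed (0.0% called in each comparison), and 0 to 8 miRNAs had an unadjusted p under 0.05.

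Its share of single spots above background gives a finer reading than the yes or no of an array. The share was 60.3% with Diethylthiourea, 62.0% with Benzophenone, 51.7% with Phenobarbital, 38.8% with Diethylhexylphthalate, 44.2% with Monuron, 72.5% with Chlorendic Acid, 66.7% with Methapyrilene HCl and 77.0% with 2-acetylaminofluorene, against 34.02% (33 of 97 spots) in control liver. The control share was the lowest of the 9, and spots of 1 array are not replicates, so that no test was made on it.

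The 3 probes of miR-409-3p gave like calls. They were detected on 24, 22 and 17 arrays, all 3 together on 17 arrays and none of the 3 on 14. Detection of miR-409-3p also moved with how much was detected on an array. The 24 arrays with it had 103 to 138 detected miRNAs in all (median 129), and the 14 arrays without it had 90 to 128 (median 108). The part of this in the differences between groups was not tested.

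The fit across miRNAs, limma on the log2 signal scaled to each array's 75th percentile, took the 126 miRNAs that all arrays of some group detected. No locus miRNA met this filter, and this fit therefore says nothing on a change in any of them. Its calls at an adjusted p under 0.05 were 0.0% of the 126 with Diethylthiourea, 4.76% with Benzophenone, 3.97% with Phenobarbital, 15.1% with Diethylhexylphthalate, 3.97% with Monuron, 30.2% with Chlorendic Acid, 4.76% with Methapyrilene HCl and 11.9% with 2-acetylaminofluorene.

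Without the filter, 166 miRNAs rose above the floor of the scale (log2 -5.49) on at least 1 array and were fitted, among them the locus miRNAs miR-409-3p, miR-299, miR-329 and miR-487b. None of these 4 was called with any chemical by limma. The calls among the 166 came to 0.0% with Diethylthiourea, 3.61% with Benzophenone, 3.01% with Phenobarbital, 10.2% with Diethylhexylphthalate, 3.01% with Monuron, 22.3% with Chlorendic Acid, 2.41% with Methapyrilene HCl and 9.64% with 2-acetylaminofluorene. The other 38 members sat at the floor on every array. With 2-acetylaminofluorene 1 of the 4, miR-409-3p, had an unadjusted p under 0.05, and with the other 7 chemicals none had. The levels of miR-299, miR-329 and miR-487b rose above the floor on so few arrays that their differences from control were between 0 and 0.16.

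The log2 level of miR-409-3p with 2-acetylaminofluorene was -5.05 ± 0.42 (SD, n = 5), against -5.43 ± 0.092 in control liver (n = 5). The difference was 0.39 (SE 0.17, limma adjusted p = 0.134), and it did not pass. Without 2-acetylaminofluorene replicate 4 the difference was 0.50 and passed, with a limma adjusted p of 0.0455. That fit called 12.7% of the 166 miRNAs. Without 2-acetylaminofluorene replicate 5 the difference was 0.27 and was not called. Replicate 5 had the lowest signal of its group, 17.5 units, with 2 of 20 spots above background, and miR-409-3p was not detected on it. The 75th percentile that its signal was divided by, 424 units, was the lowest of all arrays. After this scaling its log2 level was the highest of the group. Replicates 2 and 4, where miR-409-3p was detected, stood at the floor. The differences of 0.39 and 0.50 thus both draw their highest level from an undetected array. With a lower floor the difference was 0.44 (interval -0.018 to 0.90, limma adjusted p = 0.227). With normexp background correction it was 0.037 (-0.63 to 0.71, limma adjusted p = 0.998). The part of the scaling in the difference of 0.39 was not tested. In the authors' deposited table, fitted with limma in the same way, miR-409-3p was not called with any chemical, and its difference with 2-acetylaminofluorene was 0.17 with an adjusted p of 0.657. Of the 167 miRNAs of the authors' deposited table, the calls were 0.0% with Diethylthiourea, 3.59% with Benzophenone, 3.59% with Phenobarbital, 10.2% with Diethylhexylphthalate, 2.99% with Monuron, 26.9% with Chlorendic Acid, 1.8% with Methapyrilene HCl and 13.8% with 2-acetylaminofluorene.

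With Phenobarbital the level was -5.34 ± 0.071 (n = 3), against -5.43 ± 0.092 in control liver, a difference of 0.094 (SE 0.19, 95% interval -0.30 to 0.48, limma adjusted p = 1.0). The floor compresses this scale, and miR-409-3p stood at it on 11 of 38 arrays. Which arrays these were depended on the 75th percentile as well as on the signal. Monuron replicate 1, detected at 19.9 units and divided by 1086 units, stood at the floor. Monuron replicate 3, not detected at 14.7 units and divided by 540 units, stood above it. The log2 levels therefore do not follow detection, and the differences hold the scaling of the arrays too. With the lower floor the difference with Phenobarbital was 0.22 (95% interval -0.31 to 0.75, limma adjusted p = 0.93). With normexp the difference was 0.29 (-0.48 to 1.07, limma adjusted p = 0.70). No floor applies there, but a fixed offset was added to every spot, which compresses differences between signals this low. Even on that scale the normexp interval includes a 2-fold rise. The 0.29 lies close to the median normexp difference of all miRNAs with Phenobarbital, given below. The part of such a shared shift in the 0.29 was not tested. The other 6 differences were 0.34 with Diethylthiourea, 0.20 with Benzophenone, 0.19 with Diethylhexylphthalate, 0.14 with Monuron, 0.14 with Chlorendic Acid and 0.19 with Methapyrilene HCl, with limma adjusted p of 0.63 to 1.0. Single arrays moved several of the 8 differences: the difference was 0.085 without Diethylhexylphthalate replicate 1, 0.038 without Monuron replicate 2, 0.034 without Chlorendic Acid replicate 4 and -0.014 without Methapyrilene HCl replicate 4. It was 0.057 without Phenobarbital replicate 3. The highest such values were 0.28 without Diethylhexylphthalate replicate 4, 0.20 without Monuron replicate 1 or 4, 0.21 without Chlorendic Acid replicate 1 and 0.28 without Methapyrilene HCl replicate 2 or 3. All 8 comparisons share the same 5 control livers, of which 2 were the lowest of the series.

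**Figure D4:**
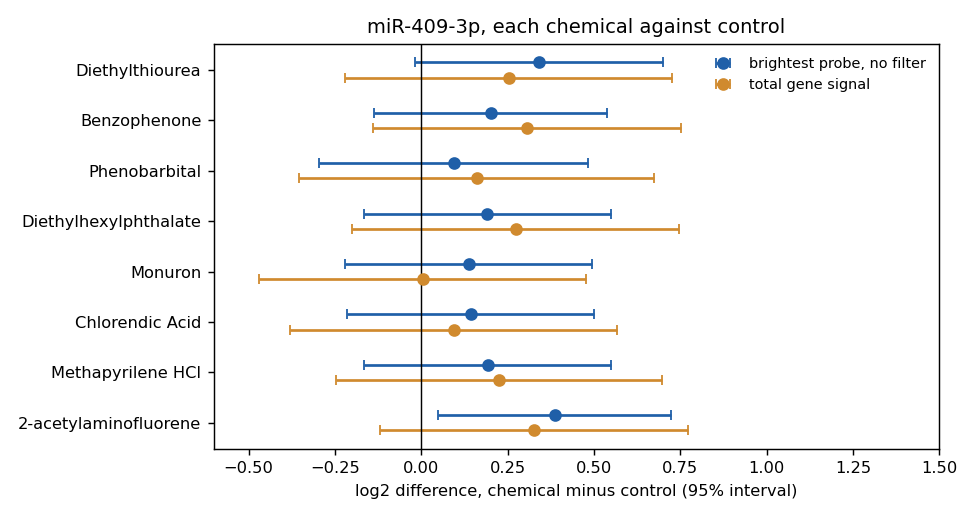
Log2 difference of miR-409-3p, each chemical minus control (horizontal axis), with 95% intervals from limma, for the brightest probe without a filter and for the total gene signal. By the brightest probe the interval with 2-acetylaminofluorene runs from 0.049 to 0.72 and the other 7 include 0, and by the total gene signal all 8 include 0.

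The total gene signal, which adds up all probes of a miRNA, gave a second reading. miR-409-3p was the only locus miRNA with the gene detection flag on every array of a group, and among 144 miRNAs so chosen its differences ran from 0.0039 with Monuron to 0.33 with 2-acetylaminofluorene. None was called, with limma adjusted p of 0.31 to 1.0. The share called among the 144 was 0.0% with Diethylthiourea, 4.86% with Benzophenone, 3.47% with Phenobarbital, 18.1% with Diethylhexylphthalate, 2.78% with Monuron, 37.5% with Chlorendic Acid, 6.25% with Methapyrilene HCl and 16.0% with 2-acetylaminofluorene. With normexp background correction all 42 locus miRNAs could be fitted among all 350, and none was called or had an unadjusted limma p under 0.05. The offset added to every spot leaves little room for a difference at signals as low as the members' own. That fit therefore says little on a change in them. Of the 350 miRNAs 0.286% were called there with Diethylhexylphthalate, 0.571% each with Chlorendic Acid and 2-acetylaminofluorene, and 0.0% with the other 5. There the members' median difference followed that of all 350 miRNAs, at 0.28 against 0.26 with Phenobarbital and -0.63 against -0.60 with Chlorendic Acid. The miR-409-3p differences turned negative with 5 of the 8 chemicals, down to -0.47 with Chlorendic Acid.

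The arrays lay on 6 slides. miR-409-3p was detected on 3 of 6, 2 of 5, 3 of 5, 4 of 7, 7 of 8 and 5 of 7 arrays of slides 1 to 6. Each Phenobarbital array shared a slide with control arrays, and the within-slide differences were -0.022 on slide 1, 0.11 on slide 3 and 0.23 on slide 4, each from 1 Phenobarbital array and 1 or 2 control arrays. With slide as a block the fitted difference was 0.083 with Phenobarbital and 0.25 with 2-acetylaminofluorene (limma adjusted p = 0.63). With 2-acetylaminofluorene only replicate 4, on slide 3, shared a slide with control arrays, and its within-slide difference was -0.046. The fit without that replicate therefore held no 2-acetylaminofluorene array on a slide with control. Monuron and Methapyrilene HCl shared no slide with control, so that slide and treatment cannot be told apart for them within slides.

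rno-miR-134, known in rat hippocampal neurons for limiting the size of dendritic spines, was detected in 1 liver. Its brightest probe read -0.85, 15.2, -1.76, 0.15 and 7.36 units with Benzophenone. It read 4.84, 6.06, 12.9, 15.7 and 0.31 units with 2-acetylaminofluorene. The control livers read 4.02, 3.62, 0.84, -0.16 and 3.91 units. The single detected array was Benzophenone replicate 2, and 2-acetylaminofluorene replicates 3 and 4 were high without passing the rule.

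On Benzophenone replicate 2, both miR-134 probes were above background, with 13 spots in all, and on 2-acetylaminofluorene replicate 4 there were 12 such spots. There the probe that was not the brightest over all arrays read 16.3 units and had 8 of 10 spots above background, and the other had 4 of 10. With Phenobarbital miR-134 read -0.18, 1.66 and 0.036 units, with no spot above background. Detection on 1 of 5 Benzophenone arrays against 0 of 5 control arrays gave a two-sided Fisher's exact p = 1.0.

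miR-300-5p passed only through a probe that was not its brightest. That probe read 3.51, -0.088, 20.3 and -1.15 units with Chlorendic Acid, with all 5 spots above background on replicate 3. It read -1.07, -2.69, -1.90, 2.37 and 0.73 units in control liver. The other 3 probes of miR-300-5p had no spot above background on Chlorendic Acid replicate 3.

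How many members count as detected depended on the rule, from 1 to 9 of the 42. With at least 1 spot of the brightest probe required, 33 of 42 locus miRNAs (78.6%) were on no array, against 108 of 308 other miRNAs (35.1%). By the gene detection flag 37 of 42 locus miRNAs were on no array, against 121 of 308 other miRNAs. That flag put miR-409-3p on 37 arrays, all but control replicate 1, and added miR-134 on 3 arrays and miR-300-5p, miR-329 and miR-539 on 1 each. None of these was on a Phenobarbital or control array except miR-409-3p, on 3 of 3 against 4 of 5. With all spots required, only miR-409-3p was left, on 3 of 4 arrays with Chlorendic Acid against 0 of 5 in control liver (Fisher's exact p = 0.0476, adjusted p = 0.73).

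Other miRNAs show what the array could detect in the same livers. miR-494, from the same cluster between miR-329 and miR-543, was detected on all 38 arrays with signals of 190 to 6282 units (median 682). The 6 measured star arms of the locus were detected on none. Of the 4 measured miRNAs of other imprinted loci, miR-296 and miR-483 were detected on no array, miR-298 on 6 and miR-335 on 30. Of 11 miRNAs listed as restricted to muscle, brain or pancreas, 9 were detected on no array, miR-206 on 1 and miR-128 on 23.

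The liver label was met by miR-122, miR-192 and miR-194, the hepatocyte miRNAs, each detected on all 38 arrays. Of 12 markers of blood cells, endothelium and stellate or other mesenchymal cells, miR-451, miR-126, miR-223, miR-150, miR-143 and miR-199a-3p were on all 38 arrays, miR-142-3p and miR-199a-5p on 37, miR-145 on 36, miR-214 on 32, miR-144 on 19 and miR-142-5p on 1. Of the muscle markers miR-1 and miR-133a were on none and miR-206 was on 1. The neuron markers miR-9, miR-124 and miR-137 were detected on none.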

How the data were processed

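Liver RNA of 38 rats was hybridized to 1-colour (Cy3) rat miRNA arrays. Per the file headers, spots were read by Feature Extraction (version 10.5.1.1), and the deposited values are linear fluorescence intensity. The authors also deposited a table of log2 values for 167 miRNAs, 1 of them a locus miRNA. Control and outlier spots (2.17% to 6.76% per array) were dropped before averaging the spots of the 938 probes, and none was saturated. Arrays were divided by their 75th percentile (taken over 137 probes that every array detected, 424 to 1086 units), with a floor at the 5th percentile of detected values (log2 -5.49, or 16.7 units on the median array). Each array detected 90 to 138 miRNAs.

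Detection, the switch rule and Fisher's exact test are given with the results. limma 3.58.1 in R 4.3.3 fitted all 38 arrays, with Benjamini-Hochberg adjustment over all miRNAs tested, and scipy 1.17.1 ran the exact tests. Both were tested on simulated data. Members given with every array's value were to be those detected on every array of a group or called. None met this, and miR-409-3p, miR-134 and miR-300-5p were given so after their values were seen. All other undetected members are listed once, and some are named again where a value of theirs is given. The members and lists were chosen with earlier results of these data known. Alternatives were 4 other detection rules, other scaling, background, normalization, probe summary, floor, filter, slide and replicate blocks, the authors' table, and leaving out each array.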

Additional observations from a re-analysis of the deposited data

Results flagged for a closer look

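Within groups of 4 or 5 livers, single arrays stood apart from the others by Dixon's test at its 95% critical value. Chance alone gives this in about 1 in 20 groups for continuous values. That rate does not hold for counts of 0 and 1, where any single differing array passes. Counts of 0 and 1, and shares near 0, set most of these gaps. Diethylthiourea replicate 3, Chlorendic Acid replicate 1, Methapyrilene HCl replicate 2 and 2-acetylaminofluorene replicate 5 had 0 detected locus miRNAs where the others of their group had 1. Diethylhexylphthalate replicate 1 had 1 where the others had 0.

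The share of spots above background over the 41 locus miRNAs other than miR-409-3p was 2.02% on Benzophenone replicate 2, against 0 to 0.126% in the rest of its group. It was 1.52% on 2-acetylaminofluorene replicate 4, against 0 to 0.376%. In both livers most of these spots belonged to miR-134, with 13 of 16 and 12 of 12. It was 0.625% on Chlorendic Acid replicate 3, all 5 spots being of 1 miR-300-5p probe. It was 0.261% on Monuron replicate 3, 0.129% on Methapyrilene HCl replicate 4 and 0.125% on Diethylthiourea replicate 1, where the other arrays of each group had 0.

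The brightest miR-300-5p probe read 4.68 units on 2-acetylaminofluorene replicate 5, against -2.40 to -1.61 in its group, and 8.19 units on control replicate 4, against -1.11 to 1.14. miR-329 read 16.4 units on 2-acetylaminofluorene replicate 5, against 0.64 to 3.53 in its group. None of these 3 readings passed the detection rule for the miRNA concerned. 2-acetylaminofluorene replicate 5 also held the highest signal of several other undetected members, among them miR-154, miR-299 and miR-434. Its high readings are thus not limited to miR-329 and miR-300-5p.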

How the results depend on the processing

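The counts of 0 locus miRNAs by the switch rule, by Fisher's exact test and by limma were again 0 for each chemical under every alternative run, with 1 exception. Without the filter and without 2-acetylaminofluorene replicate 4, limma called 1 locus miRNA, miR-409-3p (12.7% of all 166 called), so that leaving out single arrays gave 0 to 1 there and 0 with the other 7 chemicals. The limma fit with the filter held no locus miRNA, so that its 0 says nothing on stability. Nor do the Fisher counts, since with 132 to 182 tests the smallest p possible (0.00794, or 0.0179 for Phenobarbital) could hardly pass adjustment. Leaving out 1 array could not change the switch count either. miR-409-3p was detected on 2 control arrays, miR-134 on 1 of 5 Benzophenone arrays, and the other members on none. The mean number detected per array moved by its SD or more with at least 1 spot required, to 1.25 with Diethylthiourea, 1.0 with Diethylhexylphthalate, 1.25 with Methapyrilene HCl, 1.4 with 2-acetylaminofluorene and 1.4 in control liver. With the gene detection flag it was 1.0 with Diethylhexylphthalate, 1.25 with Chlorendic Acid and 1.6 with 2-acetylaminofluorene, and with all spots required it was 0.20 with Benzophenone. The cause was not tested. Leaving out single arrays gave 0.67 to 1.0 (Diethylthiourea, Chlorendic Acid and Methapyrilene HCl), 0.75 to 1.25 (Benzophenone), 0.50 to 1.0 (Phenobarbital), 0 to 0.33 (Diethylhexylphthalate), 0.33 to 0.67 (Monuron), 0.75 to 1.0 (2-acetylaminofluorene) and 0.25 to 0.50 (control). The label numbers name different animals. Same-numbered treated and control arrays deviated together in 16 of 33 pairs (r over 0.1, median r 0.029). Pairs with other numbers did so in 48 of 132 (median r 0.0050). With the replicate block limma called 0 locus miRNAs with each chemical, with or without the filter. Signal over background limits all members, since none stood far above it. Joining the open filter with another floor, normexp, a block or a left-out array, testing the total gene signal by its flag, and keeping outlier spots were chosen after seeing the data.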
